A study of Arabidopsis thaliana with 12 samples.

Results

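FMA, also known as FAMA, and AT1G22690, also known as GC1, are 2 genes of the guard cell lineage of Arabidopsis thaliana. They were taken by name from 13356 genes that the array annotation links to probe sets of a single gene, and each was read by 1 probe set. Leaf RNA of accession Col-0 plants aged 5 weeks was measured on 12 Affymetrix arrays, 3 in each of 4 groups. Leaf 13 came from intact plants (unwounded) or from plants in which forceps had wounded leaf 8 over its apical 40%, 1 h earlier (wounded). Leaf 8 carried a platinum wire in its petiole and received either no current (no current) or 40 µA for 10 s (current), and its lamina was taken 1 h after the current. Every group was of this accession, with no mutant or transgene named. The labels do not say whether a replicate was 1 plant or a pool, and the p-values given here cover no more than the spread among these arrays, part of which may be technical.

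Stomata are pores in the leaf epidermis, each bordered by a pair of guard cells. Their lineage passes through 3 related basic helix-loop-helix transcription factors: SPCH starts it, MUTE ends the self-renewing divisions and commits a cell to become a guard mother cell, and FMA acts last, closing the division phase and giving guard cells their identity. FMA is also needed for myrosin cells, which store the enzyme that breaks down glucosinolates. The promoter of AT1G22690 is widely used to drive expression in guard cells. Leaves are numbered in the order in which they emerge, so leaf 13 is younger than leaf 8 on the same plant.

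All values below are log2 RMA expression values as deposited, a scale on which a step of 1 is a doubling. Arrays of the same group correlated with r from 0.991 to 0.996 over all genes, and the lowest r of any pair of arrays was 0.953. The leaf antenna gene LHCB4.1 and the Rubisco activator gene RCA lay between 12.6 and 13.04 on every array, near the top of a scale that ran to 13.3, as in green leaf tissue. Differences between groups were tested with limma over all genes with Benjamini-Hochberg adjustment, with a threshold of 0.05, and the smallest two-sided p of an exact permutation test of 3 against 3 arrays is 0.1.

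The level of FMA separated leaf 13 from leaf 8. In unwounded leaf 13 it was 5.34, 4.83 and 5.12 in replicates 1 to 3, and in wounded leaf 13 it was 4.71, 5.07 and 4.55. In leaf 8 it was 4.36, 4.03 and 3.92 without current and 4.22, 4.02 and 4.0 with current. The 6 leaf 13 arrays all lay above the 6 leaf 8 arrays, with a gap of 0.20 between the lowest of the former and the highest of the latter, while the groups of the same leaf overlapped.

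AT1G22690 had the same order of groups with a wider gap. It read 8.98, 8.92 and 8.71 in unwounded leaf 13 and 8.64, 8.57 and 8.46 in wounded leaf 13. It read 6.91, 6.22 and 6.41 in leaf 8 without current and 6.37, 6.50 and 6.56 in leaf 8 with current. The 6 leaf 13 arrays lay at least 1.54 above the 6 leaf 8 arrays, the unwounded and wounded arrays did not overlap, and the no-current and current arrays did. Among all genes, 11.7% had every leaf 13 array above every leaf 8 array, so that the separation by itself is common on these arrays.

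**Figure D1:**
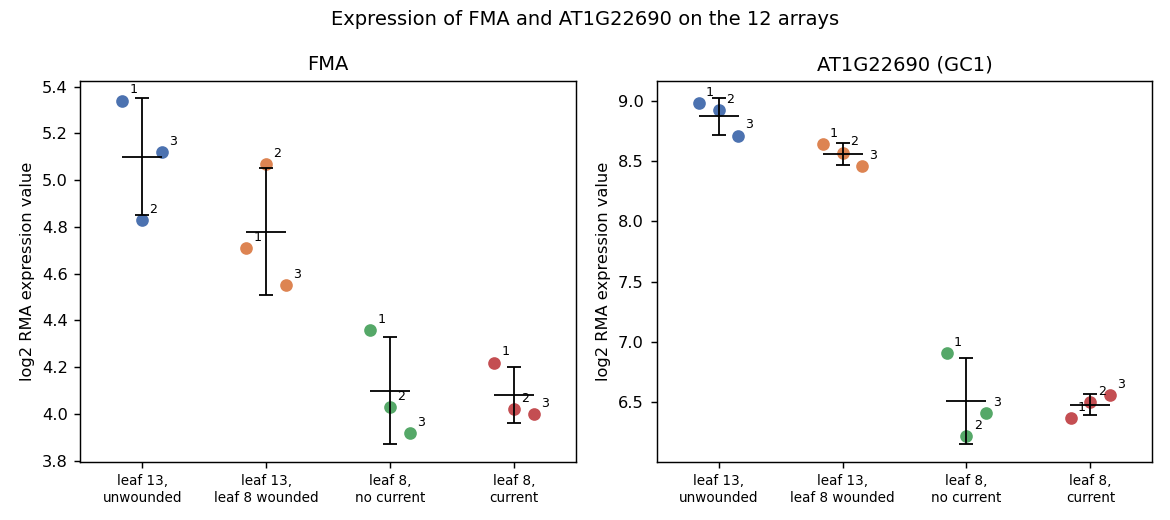
Log2 RMA expression values of FMA (left) and AT1G22690 (right) on each of 12 arrays by group. Points are arrays labelled with their replicate number, and the horizontal line and bar are the group mean and SD (n = 3). For both genes all leaf 13 arrays lie above all leaf 8 arrays, and the vertical axes differ and do not start at 0.

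Ordered by mean, FMA was highest in unwounded leaf 13 (5.10 ± 0.25, SD, n = 3), followed by wounded leaf 13 (4.78 ± 0.27), leaf 8 without current (4.1 ± 0.23) and leaf 8 with current (4.08 ± 0.12). AT1G22690 followed the same order, at 8.87 ± 0.15, 8.56 ± 0.09, 6.51 ± 0.36 and 6.48 ± 0.09. In each ranking only the middle pair of neighbours, wounded leaf 13 and no-current leaf 8, differed past the threshold: by 0.68 for FMA (limma SE 0.16, adjusted p = 0.0027) and by 2.04 for AT1G22690 (limma SE 0.15, adjusted p = 9.48e-08), both lower in leaf 8, where 17.4% of all genes were called lower. The levels of these genes belong to different probe sets and are not set against each other.

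The control leaves of both experiments give the difference between leaves without forceps wounding or current, though leaf 8 carried the wire in its petiole. FMA was 1.99-fold higher in unwounded leaf 13 than in no-current leaf 8 (95% interval 1.58 to 2.51), a log2 difference of -0.99 for leaf 8 minus leaf 13 (limma SE 0.16, adjusted p = 1.93e-04). Its mean of 4.1 in no-current leaf 8 lay under 4.32, the median of all gene values, and this fold may be understated. AT1G22690 was 5.13-fold higher in unwounded leaf 13 (95% interval 4.13 to 6.37), a log2 difference of -2.36 (limma SE 0.15, adjusted p = 8.78e-08). In this comparison 16.2% of all genes were called lower in leaf 8. Only 0.0973% of genes had a lower difference than AT1G22690, and 2.26% had a lower difference than FMA. Leaf position, the wire, the tissue named (leaf 13, but the lamina of leaf 8) and the experiment differed together between these groups and cannot be told apart, and in whole leaves fewer cells of a type and less RNA per cell cannot be told apart either.

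The treated leaves had the same direction as the controls, which was already given by the separation of all leaf 13 from all leaf 8 arrays. FMA was 1.62-fold higher in wounded leaf 13 than in leaf 8 after current (95% interval 1.29 to 2.05, log2 difference -0.70, limma SE 0.16, adjusted p = 0.00242). AT1G22690 was 4.22-fold higher there (95% interval 3.40 to 5.24, log2 difference -2.08, limma SE 0.15, adjusted p = 2.20e-07). This pair of groups was set against each other after the data were seen, and it carries the same mixture of leaf position, wire and experiment with 16.8% of genes called lower in leaf 8.

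After wounding of leaf 8, neither gene passed the threshold in leaf 13. FMA was at -0.32 (limma SE 0.16, adjusted p = 0.24) and AT1G22690 at -0.32 (limma SE 0.15, adjusted p = 0.203). At an unadjusted p under 0.05, AT1G22690 was 1 of the 2 past the threshold, where 23.8% of all genes were. As folds, unwounded over wounded, these are 1.24 (95% interval 0.988 to 1.57) for FMA and 1.24 (95% interval 1.00 to 1.55) for AT1G22690. Of all genes, 8.42% were called lower after wounding and 11.1% had a lower difference than either gene. All 3 wounded arrays of AT1G22690 lay below all 3 unwounded arrays (exact permutation p = 0.1), which was true of 19.7% of all genes. For FMA the wounded replicate 2, at 5.07, lay above the unwounded replicate 2, at 4.83 (exact permutation p = 0.2). Without unwounded replicate 1 the FMA difference was -0.19, without wounded replicate 3 it was -0.20, and without wounded replicate 2 it was -0.46.

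After current neither gene passed the threshold in leaf 8. FMA was at -0.02 (limma SE 0.16, adjusted p = 0.975) and AT1G22690 at -0.04 (limma SE 0.15, adjusted p = 0.959), in a comparison in which 3.96% of all genes were called and 14.2% had an unadjusted p under 0.05. The 95% intervals of the fold, no current over current, ran from 0.807 to 1.28 for FMA and from 0.826 to 1.27 for AT1G22690. Both signs turned without no-current replicate 1, the highest no-current array for both genes, to 0.10 for FMA and 0.16 for AT1G22690. That of FMA also turned without current replicate 2 (0.005) or 3 (0.02), and that of AT1G22690 without current replicate 1 (0.02). The current response minus the wound response was 0.29 for FMA (limma SE 0.22, adjusted p = 0.718) and 0.28 for AT1G22690 (limma SE 0.21, adjusted p = 0.71), where 2.85% of all genes were called. A difference between the responses was thus not detectable for either gene with 3 arrays per group.

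**Figure D2:**
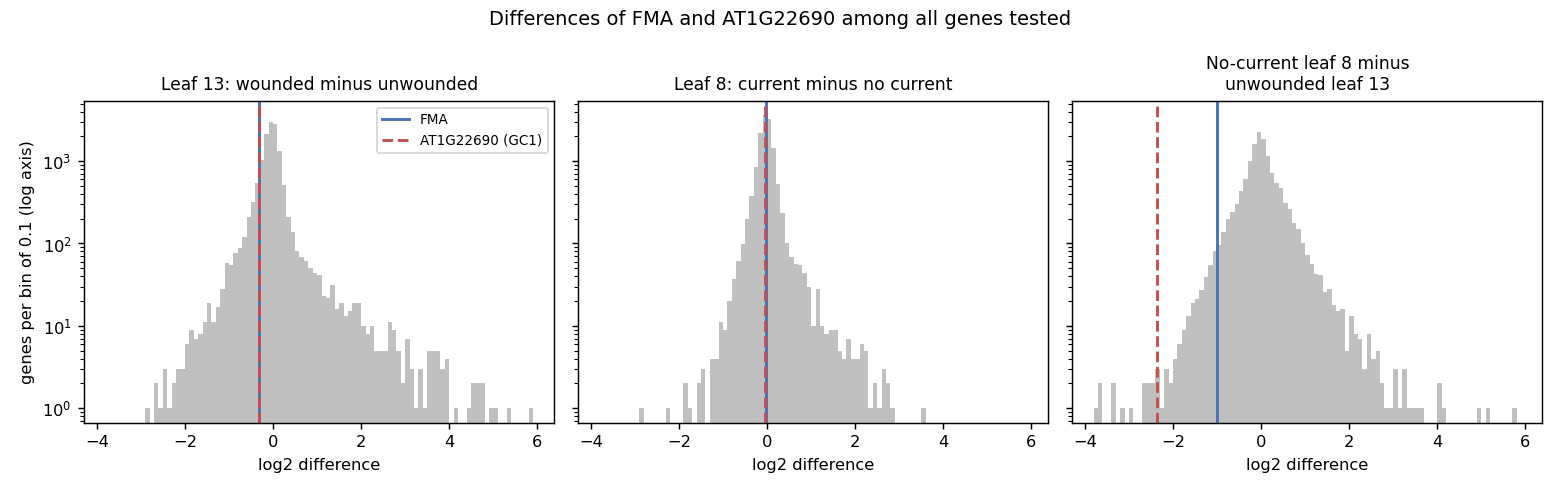
Number of genes (log axis) in bins of 0.1 of the log2 difference for wounded minus unwounded leaf 13, current minus no-current leaf 8, and no-current leaf 8 minus unwounded leaf 13, over 13356 genes. Vertical lines mark FMA (solid) and AT1G22690 (dashed), which coincide at -0.32 after wounding, lie near 0 after current and stand at -0.99 and -2.36 between the control leaves.

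The lineage around FMA was read through 3 further regulators on the list of lineage transcription factors, so that 4 of its 11 genes were measured. Here and below a listed gene counts as measured only where the array annotation names a probe set for it alone, and others may lie among the 8730 probe sets not named there. SPCH, the first factor of the lineage, was at 2.48, 2.27 and 2.57 in unwounded leaf 13 and at 2.17, 2.34 and 2.15 in no-current leaf 8. All 12 SPCH values lay under 2.66, the 25th percentile of all gene values, where RMA values carry little signal over background. MUTE, the middle factor, was at 2.94, 3.06 and 3.14 in unwounded leaf 13 and at 2.68, 2.99 and 2.87 in no-current leaf 8. Its lowest values were thus close to 2.66 as well. For both genes the arrays of these groups overlapped.

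The limma difference of no-current leaf 8 minus unwounded leaf 13 was -0.22 for SPCH (SE 0.13, adjusted p = 0.229) and -0.20 for MUTE (SE 0.19, adjusted p = 0.483). AGL16, a MADS-box factor that acts on the extra divisions of the lineage, was at 0.23 (limma SE 0.10, adjusted p = 0.0779), and passed when unwounded replicate 2 (limma adjusted p = 0.0431) or no-current replicate 3 (0.0441) was left out. Of these 4 genes FMA alone was called between the control leaves, where 32.9% of all genes were called in either direction. After wounding limma called 0 of the 4, with 0 at an unadjusted p under 0.05, where 14.2% of all genes were called. After current it called 0, with 0 at an unadjusted p under 0.05, where 3.96% of all genes were called. After wounding SPCH was at 0.08 (SE 0.13), MUTE at 0.16 (SE 0.19) and AGL16 at 0.03 (SE 0.10), against -0.32 for FMA. MUTE read 3.78 in wounded replicate 2, against 3.14 and 2.72 in the other wounded arrays, and was at -0.12 without it.

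Among basic helix-loop-helix factors of the same subgroup as FMA, 7 of 10 were measured. Of these, 4 were measured under a name that the reference carries, and only they are described. The remaining one of the 4, AT1G22490 or bHLH094, was at 0.07 between the control leaves (limma SE 0.12, adjusted p = 0.738). It was at -0.10 after wounding (SE 0.12) and at 0.08 after current (SE 0.12). FMA was again the gene called between the control leaves, 1 of 4 against 32.9% of all genes. Limma called 0 of 4 after wounding, against 14.2% of all genes, and 0 of 4 after current, against 3.96%, with 0 at an unadjusted p under 0.05 in either. Of the 6 genes listed for myrosin cells FMA was the 1 measured.

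STOMAGEN encodes a secreted peptide, made in the mesophyll, that promotes stomatal formation, and it was the 1 measured gene of 22 listed for signalling and polarity in the lineage. It read 7.27, 6.92 and 7.30 in unwounded leaf 13 and 6.71, 6.57 and 6.34 in wounded leaf 13. It read 6.25, 5.39 and 5.72 in leaf 8 without current and 5.75, 5.55 and 5.62 with current. All leaf 13 arrays lay above all leaf 8 arrays, as for FMA and AT1G22690 and 11.7% of all genes, and all wounded arrays lay below the unwounded arrays, as for 19.7% of all genes.

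STOMAGEN was 2.60-fold higher in unwounded leaf 13 than in no-current leaf 8 (log2 difference -1.38, limma SE 0.18, adjusted p = 3.78e-05). After wounding it fell by 0.63 on the log2 scale (limma SE 0.18, adjusted p = 0.0276), and after current it was at -0.15 (SE 0.18, adjusted p = 0.826). The call after wounding was lost when unwounded replicate 1 or 3, or replicate 2 or 3 of the wounded arrays, was left out (limma adjusted p = 0.101, 0.109, 0.071 and 0.125 in that order). The difference of the responses was 0.48 (limma SE 0.25, adjusted p = 0.504) and did not pass.

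Of the 47 genes listed for guard cell function 6 were measured, and 3 of these under a name that the reference carries. These 3 were AT1G22690, listed by its locus, AT4G14480 and CHX20. The others measured are not described here. AT4G14480, or BLUS1, encodes a kinase that relays blue light from phototropins to stomatal opening, and CHX20 encodes a cation/proton exchanger of guard cells. AT4G14480 read 5.43, 5.09 and 5.14 in unwounded leaf 13 and 4.84, 4.73 and 4.65 in wounded leaf 13. CHX20 read 5.92, 5.98 and 6.03 in unwounded leaf 13 and 5.80, 5.44 and 5.47 in wounded leaf 13. In both genes every wounded array lay below every unwounded array, which was true of 19.7% of all genes.

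AT4G14480 fell by 0.48 after wounding (limma SE 0.11, adjusted p = 0.00883) and CHX20 fell by 0.40 (limma SE 0.12, adjusted p = 0.0345). Of the 6 measured guard cell genes 3 are described. Of these 3, 2 were called lower and AT1G22690 was not, where 8.42% of all genes were called lower. The call of AT4G14480 was lost without unwounded replicate 1 (limma adjusted p = 0.0521). That of CHX20 was lost under median centring or quantile normalization (limma adjusted p = 0.0611 and 0.053), on leaving out any 1 unwounded array (0.0652, 0.0922 and 0.112), and on leaving out wounded replicate 2 (0.144) or 3 (0.135). After current limma called 0 of the 3, with 0 at an unadjusted p under 0.05, where 3.96% of all genes were called, and AT4G14480 and CHX20 were at -0.01 (SE 0.11) and 0.02 (SE 0.12). The difference of the responses was 0.48 for AT4G14480 (limma SE 0.16, adjusted p = 0.175) and 0.42 for CHX20 (limma SE 0.17, adjusted p = 0.296), and neither passed.

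**Figure D3:**
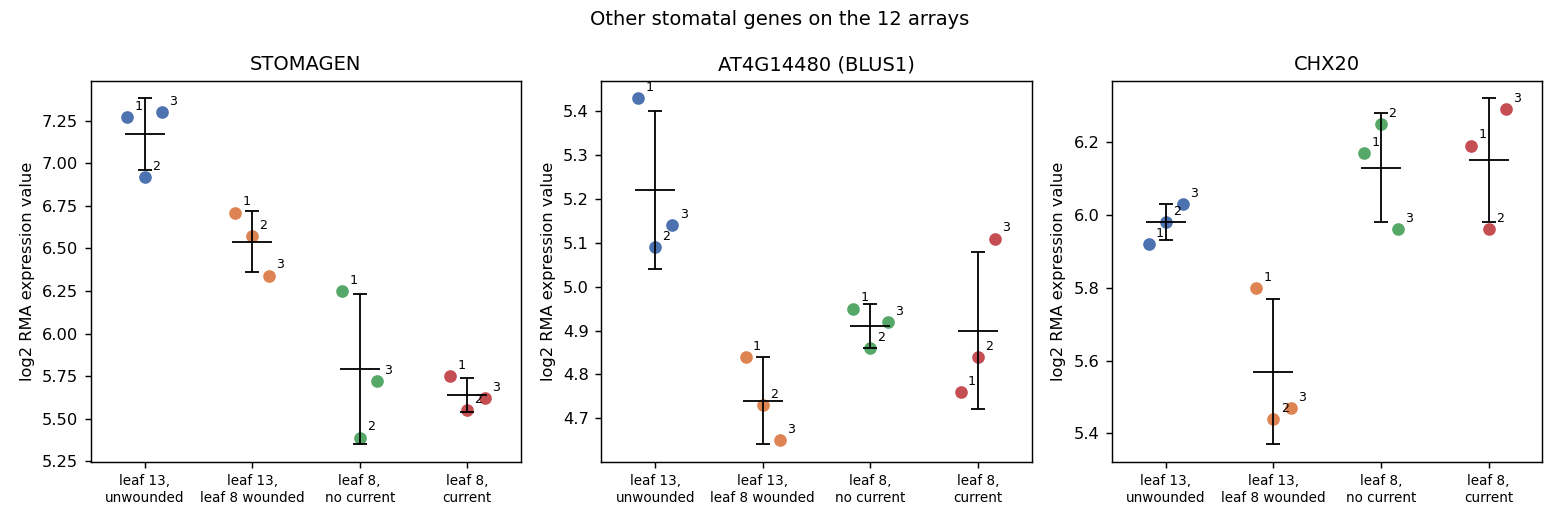
Log2 RMA expression values of STOMAGEN, AT4G14480 and CHX20 on each of 12 arrays by group. Points are arrays labelled with their replicate number, lines and bars are group means and SD (n = 3), and the vertical axes differ and do not start at 0. The wounded arrays lie below the unwounded arrays for all 3 genes, while the leaf 8 arrays of CHX20, from 5.96 to 6.29, lie above the wounded arrays.

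Between the control leaves these genes parted. AT4G14480 was at 4.95, 4.86 and 4.92 in no-current leaf 8, a difference of -0.31 from unwounded leaf 13 (limma SE 0.11, adjusted p = 0.0473). That call was lost when the variance prior followed a robust trend (limma adjusted p = 0.0712), and without any 1 array other than unwounded replicate 2 (0.0623 to 0.217). CHX20 was at 6.17, 6.25 and 5.96 in no-current leaf 8, a difference of 0.15 (limma SE 0.12, adjusted p = 0.388), where AT1G22690 was at -2.36.

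In all, 9 genes were measured under a name that the reference carries, of 105 loci listed. A further 11 loci were measured but are named in the reference by locus alone, and they are left out of the counts below. The lists cover the stomatal lineage and guard cell function, and also myrosin cells, the GASA family of AT1G22690 and the subgroup of FMA. AT1G22490 is among the 9 only as a member of that subgroup. After wounding 3 of the 9 were called lower and 0 higher, where 8.42% of all genes were called lower, with a median difference of -0.32 against -0.03 over all genes. After current limma called 0 of the 9, with 0 at an unadjusted p under 0.05, where 3.96% of all genes were called, and the median was -0.01 against -0.02. Between the control leaves 4 of the 9 were called lower in leaf 8 and 0 higher, where 16.2% of all genes were called lower, with a median of -0.22 against -0.02. FMA and AT1G22690 are among the 9 and account for 2 of the 4. Both were themselves at -0.32 after wounding, so the median of the 9 there is their own value.

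**Figure D4:**
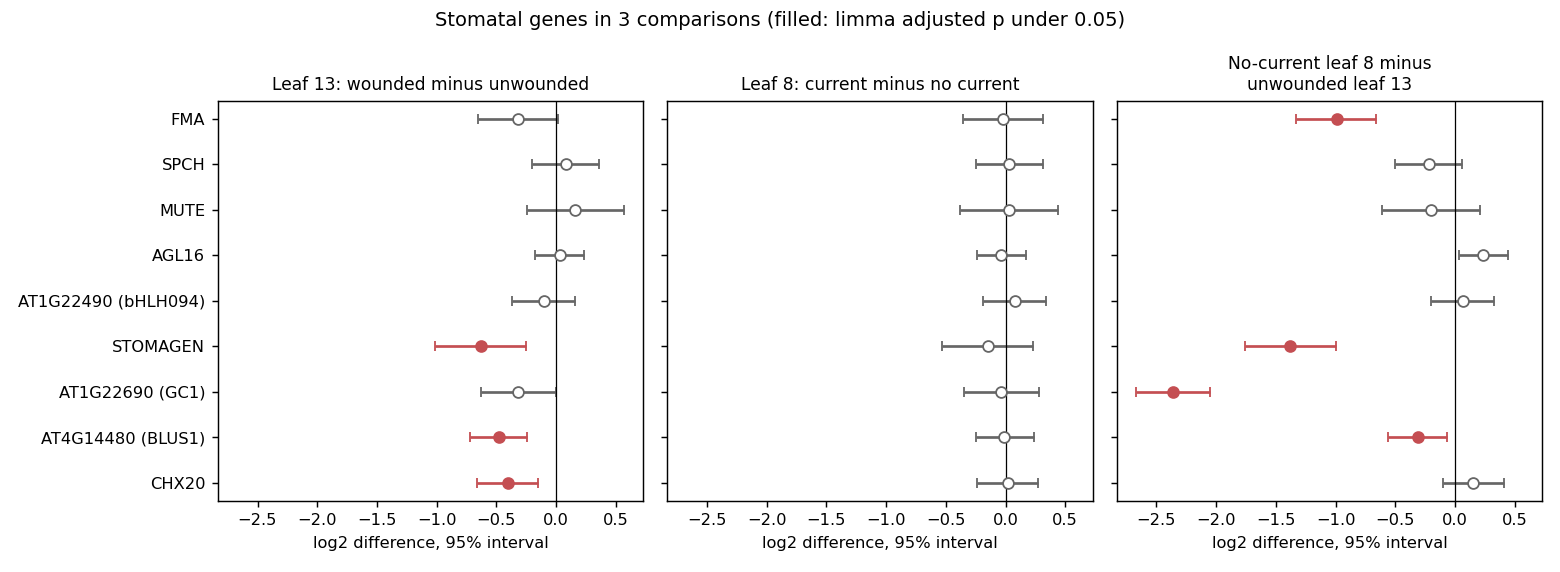
Log2 differences (points) with 95% intervals from limma (bars) for 9 genes in 3 comparisons, with filled red points for an adjusted p under 0.05. All but AT1G22490, of the subgroup of FMA, are on a stomatal list. After wounding STOMAGEN, AT4G14480 and CHX20 are called lower, after current none is, and between the control leaves AT1G22690 stands farthest from 0 at -2.36.

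Among markers of other leaf cell types, 1 mesophyll gene was called lower and 1 vascular gene higher in no-current leaf 8. In that comparison 32.9% of all genes were called in either direction. Of the 9 mesophyll markers 3 were measured, and their mean level ran from 12.76 to 12.83 in unwounded leaf 13 and from 12.62 to 12.65 in no-current leaf 8. LHCB4.1 was called lower in leaf 8, at -0.23 (limma SE 0.08, adjusted p = 0.0395), and lost its call without any 1 of the 6 arrays (0.0636 to 0.106), with the comparison fitted alone (0.0657) or with quantile normalization (0.152). LHCB4.2 was at -0.08 (limma SE 0.09, adjusted p = 0.555) and RCA at -0.16 (limma SE 0.08, adjusted p = 0.164), and neither was called. SWEET11, a phloem sucrose transporter and the 1 measured vascular marker of 8, was 0.70 higher in no-current leaf 8 (limma SE 0.15, adjusted p = 0.00254). It fell by 0.48 after wounding (limma SE 0.15, adjusted p = 0.0477), where 14.2% of all genes were called. This call was lost without any 1 of the 6 arrays (0.06 to 0.155) and with median centring (0.0965).

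TRY, a regulator of trichome spacing and the 1 measured gene of 12 listed for epidermis and trichomes, was at -0.29 between the control leaves (limma SE 0.21, adjusted p = 0.331), at 0.08 after wounding (SE 0.21) and at 0.68 after current (SE 0.21, adjusted p = 0.0978). It passed after current when replicate 2 of the no-current arrays was left out (limma adjusted p = 0.0271) or replicate 1 of the current arrays (0.0132). The 7 listed markers of dividing cells were linked to no named probe set and were not analysed here. The part of these other cell types in the levels of FMA and AT1G22690 was not tested.

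The genes whose pattern was most like that of each gene were named by Pearson's r of log2 values over the 12 arrays, as a description in which the points share leaf and treatment. For FMA these were AT2G23070 (r = 0.970), TBL45 (0.962), AT3G05730 (0.958), AT1G44835 (0.955) and AT3G59040 (0.954). AT2G23070 carries the synonym CKA4 and encodes a chloroplast form of the casein kinase CK2 catalytic subunit, and TBL45 belongs to a family that acetylates cell wall polymers. Over the 6 leaf 13 arrays alone r with FMA ranged from 0.819 to 0.925 for these 5 genes, and over the 6 leaf 8 arrays from 0.482 to 0.906. AT3G05730 had the highest r in both, at 0.925 and 0.906. TBL45 changed most between the control leaves, from 7.60 ± 0.10 in unwounded leaf 13 to 5.46 ± 0.50 in no-current leaf 8 (SD, n = 3).

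For AT1G22690 the list was AT1G33811 (r = 0.991), AT1G12310 (0.988), AT5G10160 (0.987), HEME2 (0.987) and AT5G01015 (0.987). HEME2 encodes a uroporphyrinogen decarboxylase of tetrapyrrole synthesis, the pathway to chlorophyll and haem. AT1G33811 had a wider step than AT1G22690 itself, from 8.15 ± 0.06 in unwounded leaf 13 to 4.51 ± 0.22 in no-current leaf 8. Within leaf 13 alone r with AT1G22690 ranged from 0.308 to 0.920 for these 5 genes, and within leaf 8 from 0.550 to 0.682 apart from HEME2 at 0.374. FMA and AT1G22690 had an r of 0.925 with each other over the 12 arrays, 0.615 within leaf 13 and 0.625 within leaf 8, which placed AT1G22690 at rank 77 for FMA and FMA at rank 519 for AT1G22690.

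**Figure D5:**
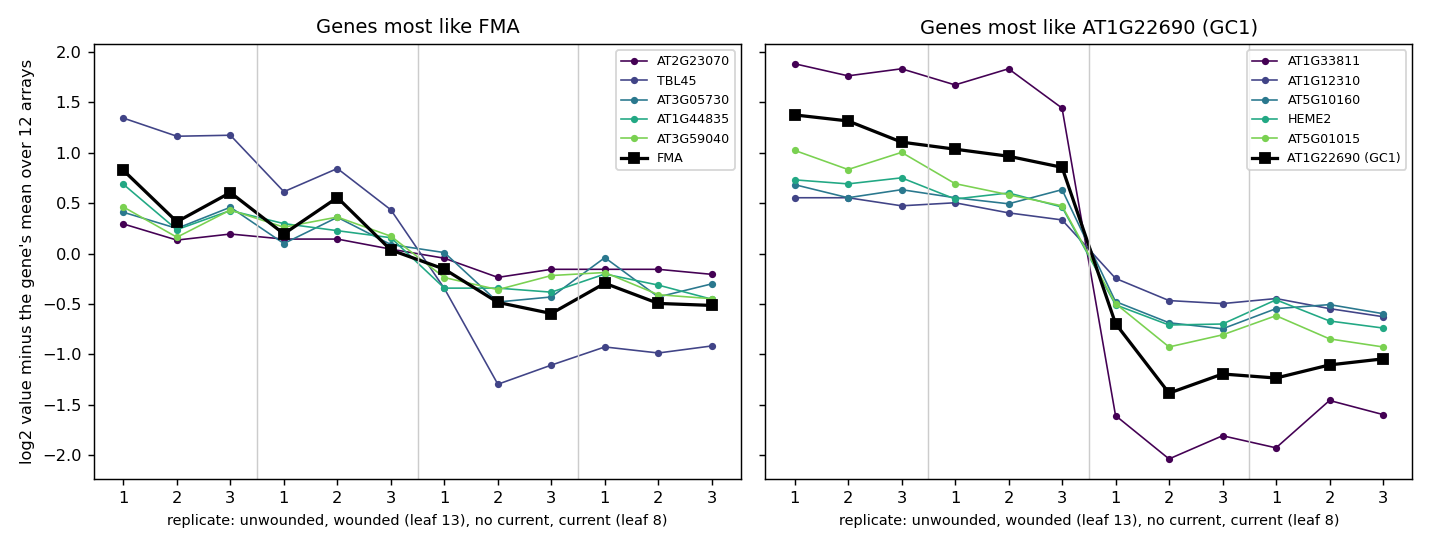
Log2 values minus each gene's mean over 12 arrays for the 5 genes most like FMA (left) and the 5 most like AT1G22690 (right), with the named gene in black squares. Grey lines divide the groups, and each tick is 1 array by replicate number. The step between leaf 13 and leaf 8 is shared by all genes shown, with AT1G33811 the widest.

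Genes next to FMA and AT1G22690 on the chromosome were read where measured, and their differences were not tested against those of their neighbours. AT1G22700, which follows AT1G22690 in the reference order, was at -0.44 between the control leaves (limma SE 0.09, adjusted p = 0.00181), against -2.36 for AT1G22690. AT3G24130 and AT3G24150, on either side of FMA, were at 0.02 (limma SE 0.12, adjusted p = 0.939) and -0.19 (limma SE 0.13, adjusted p = 0.316), against -0.99 for FMA. The values of AT3G24130 ran from 2.44 to 3.03, with 2 arrays under the 25th percentile of all gene values. Little signal over background is expected there, so its difference says little.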

How the data were processed

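Expression values on the log2 scale were used as deposited: per the submitters' processing notes the authors ran RMA with Affymetrix Power Tools, whose versions are not given in the sources used. The log base is taken from RMA itself and from values between 1.46 and 13.3. RMA equalises intensities between arrays, so a change shared by most genes is removed, and folds of dim genes are understated. No filter was applied. Of 22810 probe sets, 64 were controls, 13513 had 1 gene, 503 had several and 8730 were not named. The mean was used for 146 genes with more than 1 probe set, leaving 13356 genes, of which 13286 matched the reference by identifier.

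Groups were compared with limma 3.58.1 in R 4.3.3, with 1 mean per group over 12 arrays (8 residual and 6.31 prior degrees of freedom) and two-sided tests adjusted over all genes. The fit was tested on simulated data. Array number, 3 per group, limits the precision. The genes and lists were chosen with earlier results of these data known. Members of lists were described only where the reference carries their name, which left aside 11 measured loci. Genes were named by list: up to 4 past the threshold and up to 2 others by size of change, and the 5 most alike by r. Replicate numbers were not used to pair the arrays in the main fit. Alternatives covered scaling, weights, variance prior, dim genes, all probe sets, a replicate block and leaving out each array.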

Additional observations from a re-analysis of the deposited data

How the results depend on the processing

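FMA and AT1G22690 kept their direction and their call between the control leaves under every alternative run: FMA ranged from -1.12 to -0.87 and AT1G22690 from -2.56 to -2.21 when 1 array was left out. Neither was called after wounding under any alternative run. There FMA ranged from -0.46 to -0.19 and AT1G22690 from -0.40 to -0.26 without 1 array, and the lowest adjusted p in limma was 0.0873 for FMA (without wounded replicate 2) and 0.0689 for AT1G22690 (comparison fitted alone). After current, values near 0 changed sign: FMA was at 0.003 with quantile normalization and ranged from -0.11 to 0.10 without 1 array, and AT1G22690 was at 0.04 with array weights and ranged from -0.18 to 0.16. AT4G14480 was at 0.03 with quantile normalization and 0.008 with median centring, and with array weights CHX20 was at -0.04, SPCH at -0.06 and MUTE at -0.02. Without 1 array the current differences ran from -0.35 to 0.09 for STOMAGEN, -0.11 to 0.06 for AT4G14480, -0.07 to 0.11 for CHX20, -0.04 to 0.16 for SPCH, -0.06 to 0.10 for MUTE and -0.10 to 0.01 for AGL16. The wound differences ran from -0.008 to 0.19 for SPCH, -0.12 to 0.41 for MUTE, -0.03 to 0.09 for AGL16 and -0.20 to 0.004 for AT1G22490, which ran from -0.02 to 0.18 between the control leaves. The cause of these changes was not tested.

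With all 22746 probe sets other than controls in place of the 13356 named genes, more features were tested. The counts of calls were 3713 after wounding (1900 genes in the main setting) and 1185 after current (529). They were 849 for the difference of the responses (381) and 8383 between the control leaves (4391). Each count rose by a larger factor than the features did. The shares of genes called in either direction given above thus cover the named genes only, and over all probe sets they are larger. After current the count was 291 with the comparison fitted alone, which uses fewer arrays. Without 1 array it ranged from 1405 to 1892 after wounding, from 266 to 728 after current, from 227 to 469 for the difference of the responses and from 3576 to 3995 between the control leaves. The replicate number as a block left 1832, 526, 382 and 4288 calls and ended the calls of SWEET11 after wounding (limma adjusted p = 0.0757) and of AT4G14480 and LHCB4.1 between the control leaves (0.0581 and 0.0616), and none of FMA or AT1G22690. In the wounding, current and control leaf comparisons, same-numbered arrays had correlations of their deviations over all genes from -0.07 to 0.05. Arrays of different number had -0.11 to 0.14. A pairing was thus not seen over all genes, but a value over all genes cannot exclude 1 that acts on some of them. Genes near the lower end of the scale, such as SPCH, have little signal over background.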

Other observations

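On the log2 scale, replicate 1 of the no-current arrays was the highest leaf 8 array for FMA (4.36), AT1G22690 (6.91), STOMAGEN (6.25) and TBL45 (6.03). It was also the highest for AT2G23070 (9.21), AT3G05730 (8.77), AT1G12310 (7.9), AT5G10160 (6.51) and AT5G01015 (6.61). For the remaining genes named as most alike, a current array was higher. AT1G33811 was at 4.72 there and at 4.87 in current replicate 2. In current replicate 1, HEME2 was at 8.86 (8.81 there), AT1G44835 at 6.23 (6.09) and AT3G59040 at 7.43 (7.38). The genes called between the control leaves, a choice that used the unwounded and no-current arrays, were also read by array. No-current replicate 1 was the highest no-current array for 43.8% of the 2168 genes called lower in leaf 8, against 30.5% of the genes not called. It was the lowest for 33% of the 2223 genes called higher, against 41.1%. Current replicate 1 was the highest current array for 55.5% of the 2168 genes, against 40.3%, and the lowest for 55.2% of the 2223, against 29.9%. In leaf 13, unwounded replicate 3 was the highest unwounded array for 49.9% of the 2168 genes, against 30.3%, and the lowest for 42.7% of the 2223, against 34.7%. Among wounded arrays, replicate 1 was the highest for 38.7% of the 2168, against 32.1%, and replicate 2 the lowest for 44.4% of the 2223, against 31.1%. These arrays and genes were picked out after their values were seen.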
